A study of Drosophila pseudoobscura and Drosophila ananassae and Drosophila yakuba with 13 samples.

Results

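Obp44a, Obp99a and Obp83a are genes of the odorant-binding protein (OBP) family. They were picked by symbol from the gene table of Drosophila pseudoobscura, where they are 3 of 11946 genes and 3 of the 21 whose symbol starts with Obp and a digit. Earlier results of the same data, fold changes included, were known when they were picked, so their values are a description and no test of them is offered. The study measured RNA in dissected gonads of several fly species to find genes biased towards 1 sex. For D. pseudoobscura it had 2 testis and 3 ovary libraries, each from wild type, Wolbachia-free virgin adults 6 to 10 days old, of a stock center strain reared at 20 °C, with the ducts attached to the gonad taken off. Polyadenylated RNA was read as single reads of 50 bases. The labels do not say whether replicate libraries came from separate dissections, so p-values may measure technical spread only.

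OBPs are small secreted proteins that carry hydrophobic molecules through watery fluids. In D. melanogaster the antennal members fill the fluid around olfactory neurons, where odours, OBPs and membrane receptors of the Or and Ir families meet, and taste hairs use further OBPs alongside receptors of the Gr family. Other members are made outside the sense organs, in glia, gut and male reproductive glands among other places. Obp83a, also called OS-F in D. melanogaster, is a classical antennal member of that species. Obp44a is known there mainly from glia of the brain, as a carrier of fatty acids. For Obp99a no role is stated here.

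In D. pseudoobscura the 3 genes fell into 2 kinds by the authors' calls only. Obp44a and Obp99a were called higher in testis, with log2 fold changes of 10.6 and 9.34 in the authors' deposited table. Obp83a had a positive value as well, 6.53 in the authors' deposited table, but that table did not call it. The table holds 1 fold change, 1 average expression and 1 test for each gene and no value per library, so neither the level in each tissue nor the spread between replicates can be printed. The sign is not explained in the file headers, and positive folds are taken to mean testis because the table's title names that tissue first. In ovary dhd, a thioredoxin of the female germline, and bcd, the anterior determinant of the embryo, stood at -17.3 and -9.82 in the authors' deposited table, and fru and chinmo, used here as testis genes, stood at 7.51 and 6.83. These genes helped to fix the reading of the sign and are not independent evidence of it.

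Of the 3 genes, Obp44a had the strongest call. Its log2 fold change of 10.6 in the authors' deposited table is a 1532-fold difference between testis and ovary. The authors' edgeR likelihood-ratio statistic was 147 and the adjusted p, a Benjamini-Hochberg false discovery rate over all genes of the authors' deposited table, was 1.81e-32. Dividing the fold by the square root of that statistic gave an approximate standard error of 0.87 on the log2 scale, and an approximate 95% interval from 8.87 to 12.3. A larger statistic, in either direction, was found for 5.06% of all genes, and 540 of those with a fold towards testis exceeded it. As a bare fold, counted from the testis end only, 11.6% of genes had a larger one, and its rank was 1388. Towards testis, Obp44a thus stood nearer to the top of the table by its statistic than by its fold.

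The average expression of Obp44a was high relative to other genes, though its read counts are not known. After rescaling the deposited averages so that the table sums to 1000000, its average over the libraries was 362 per 1000000, and 97.0% of genes had a lower average. These averages are not corrected for gene length and are read here as the depth behind a value, not as levels to be compared between genes. At a like average, within 0.25 on the log2 scale, 40 other genes had a positive fold. The largest of these folds was 19.3, which is 8.76 above that of Obp44a, and 12 of the 40 exceeded Obp44a. Obp44a thus lay well under the largest folds that the table shows at its depth.

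Obp99a was the second member called. Its log2 fold change of 9.34 in the authors' deposited table is a 648-fold difference, and the authors' edgeR test gave a likelihood-ratio statistic of 106 (adjusted p = 4.6e-24). The approximate standard error was 0.91 and the approximate 95% interval ran from 7.56 to 11.1. Its rescaled average was 42.2 per 1000000, near the middle of the table, where 60.3% of genes had a lower one. Among 460 other genes with a positive fold at a like average, the largest log2 fold was 16.0 and 155 exceeded Obp99a. Like Obp44a, it lay under the upper edge of the folds at its depth, here by 6.63.

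The folds of Obp44a and Obp99a differed by 1.24 on the log2 scale, with an approximate standard error of the difference of 1.26 and an approximate 95% interval from -1.22 to 3.71. That difference is smaller than its error, so the order of the called members is not resolved. The folds of Obp44a and Obp99a were above that of Obp83a by 4.05 and 2.81. The approximate 95% intervals ran from -35.4 to 43.5 and from -36.6 to 42.3, so neither difference is resolved. The errors treat the genes as independent, although they share libraries.

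Obp83a was measured at the edge of detection. Its rescaled average was 0.25 per 1000000, the rank of 40 counted from the lowest of 11946 genes, and 0.33% of genes had a lower average. The log2 fold change of 6.53 in the authors' deposited table would be a 92.5-fold difference, yet the authors' edgeR test gave a likelihood-ratio statistic of 0.106 (adjusted p = 0.777). The approximate standard error, 20.1, is computed from that statistic and exceeds the fold whenever the statistic is under 1, so it adds no further evidence. For Obp83a itself no difference between testis and ovary was resolved. The value of 6.53 is then no sign of testis bias, nor of its absence. Other genes at a like average, within 0.5 on the log2 scale, were called in 130 of 271 cases, 117 of them towards ovary and 13 towards testis.

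**Figure D1:**
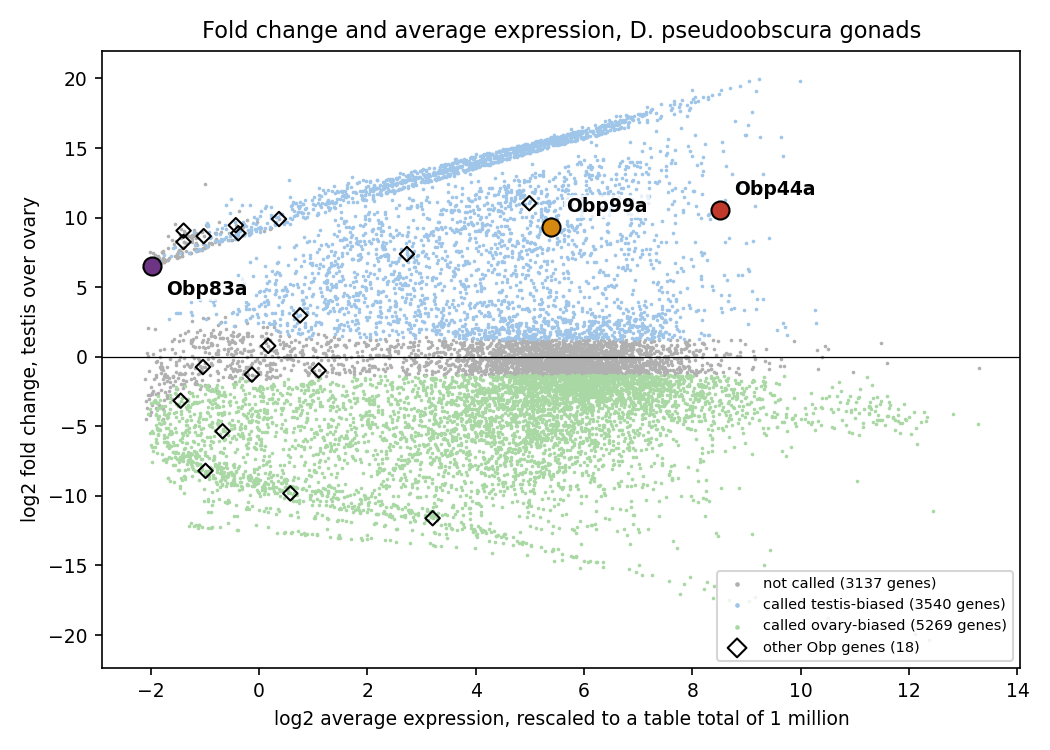
Log2 fold change of testis over ovary (vertical axis) against the rescaled log2 average expression (horizontal axis) for the 11946 genes of D. pseudoobscura, 1 point per gene, coloured by the authors' call at an adjusted p under 0.05. Obp44a and Obp99a sit inside the cloud of testis-biased genes, below its upper edge, while Obp83a sits at the far left, where averages are lowest, among genes that were not called.

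At an adjusted p under 0.05, 2 of the 3 members were called testis-biased and 0 ovary-biased. The background in this table was 29.6% of genes called testis-biased and 44.1% called ovary-biased. The members were picked with these calls known, so nothing is read from their count. All genes together had a median log2 fold change of -0.85, and relative to that median the folds of Obp44a, Obp99a and Obp83a were 11.4, 10.2 and 7.38.

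Genes with values like those of Obp83a show how the table treats this range. Besides Obp83a, 41 genes had a fold within 0.5 of its own and an average within 0.5 on the log2 scales, and 5 of them (12.2%) were called. Their likelihood-ratio statistics ran from 0.0386 to 9.31, with a median of 0.529. The mirror image behaved differently, since all 26 genes with the same average and a fold of like size towards ovary were called, with statistics from 22.5 to 59.4. For Obp99a, by contrast, all 35 genes of like fold and average were called, with statistics from 65.6 to 136, and that of Obp99a, 106, lay inside this range. For Obp44a there were 5 such genes, all called, with statistics from 73.7 to 164.

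Over the whole table, 2580 genes had a log2 fold change of at least 5 towards testis and 94.3% of them were called, against 100% of 2184 genes with as large a fold towards ovary. The 147 that were not called all had a rescaled log2 average under 1, the range that holds Obp83a. Under -1 on that scale 18 of 134 large folds towards testis were called and 177 of 177 towards ovary. Between -1 and 0 the counts were 68 of 95 and 230 of 230. From 1 upwards, where Obp99a and Obp44a lie at 5.40 and 8.50, every large fold was called in either direction. Without values per library, what separates the directions at low averages was not tested.

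**Figure D2:**
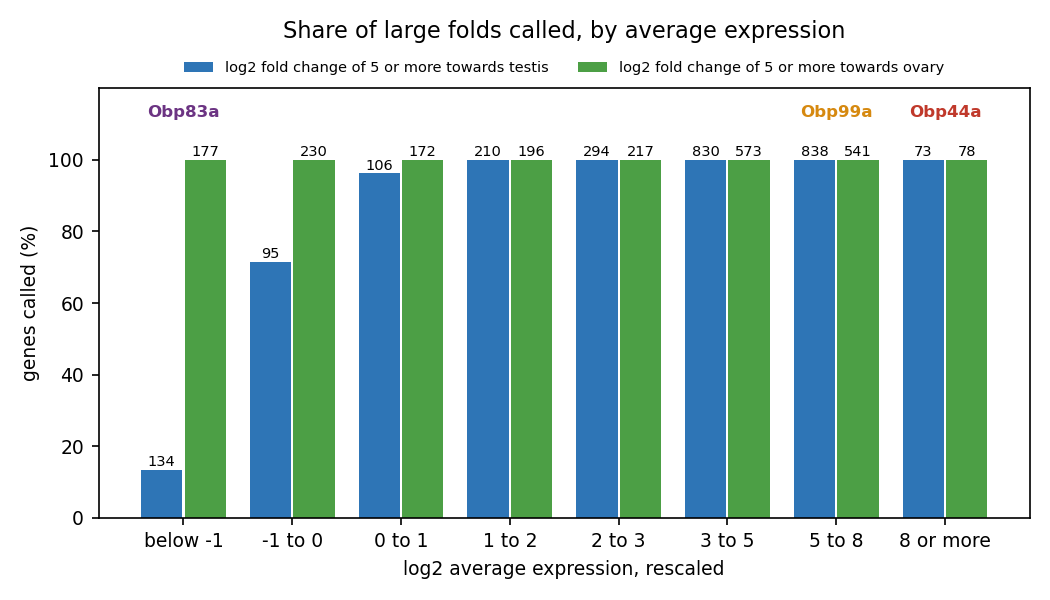
Share of genes called at an adjusted p under 0.05 (vertical axis, percent) among genes with a log2 fold change of at least 5 towards testis (blue) or ovary (green), by rescaled log2 average expression (horizontal axis), with the number of genes above each bar and each member named over its bin. Obp83a falls in the lowest bin, where 13.4% of large folds towards testis were called, and Obp99a and Obp44a fall where every one was.

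The other 18 OBP genes of the table, given as background, did not move one way. Of these 4 were called testis-biased (22.2%), 5 ovary-biased (27.8%) and 9 neither, against 29.6% and 44.1% of all genes, and their median log2 fold change was 1.87 against -0.85 for all genes. Obp50b had the largest fold towards testis of the family, at 11.0 in the authors' deposited table, just above Obp44a. Obp93a at 7.38, Obp56g-2 at 8.88 and Obp99b at 2.97 were also called testis-biased in the authors' deposited table and were chosen for naming after their values were seen. A gene of the Obp56g type encodes a seminal fluid protein in D. melanogaster. Towards ovary the largest folds were those of Obp19c at -11.6, Obp84a at -9.82 and Obp8a at -8.20 in the authors' deposited table. Obp46a at -5.35 and Obp50a at -3.16, also named after their values were seen, completed the ovary-biased calls of the authors' deposited table.

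Obp83a was not alone in pairing a large positive fold with no call. Of the 9 other OBP genes that were not called, 5 had a log2 fold change of at least 5 towards testis, and none had one of that size towards ovary. Of all 3137 genes not called, 147 had such a fold towards testis and 0 towards ovary. The absence towards ovary is thus not particular to OBP genes. Obp56c at 9.90, with a likelihood-ratio statistic of 3.0, and Obp83g at 9.45, with 1.18, were next in fold to Obp44a in the authors' deposited table. The remaining ones, singled out with their values known, were Obp57de at 9.06, Obp56d at 8.67 and Obp58d at 8.25 in the authors' deposited table. Their rescaled averages and those of Obp56c and Obp83g ran from 0.38 to 1.29 per 1000000, above the 0.25 of Obp83a and far below those of Obp99a and Obp44a. By average, Obp44a and Obp99a ranked above all 18 other OBP genes, whose averages had a median of -0.26 and a maximum of 4.99 on the rescaled log2 scale, without correction for gene length.

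**Figure D3:**
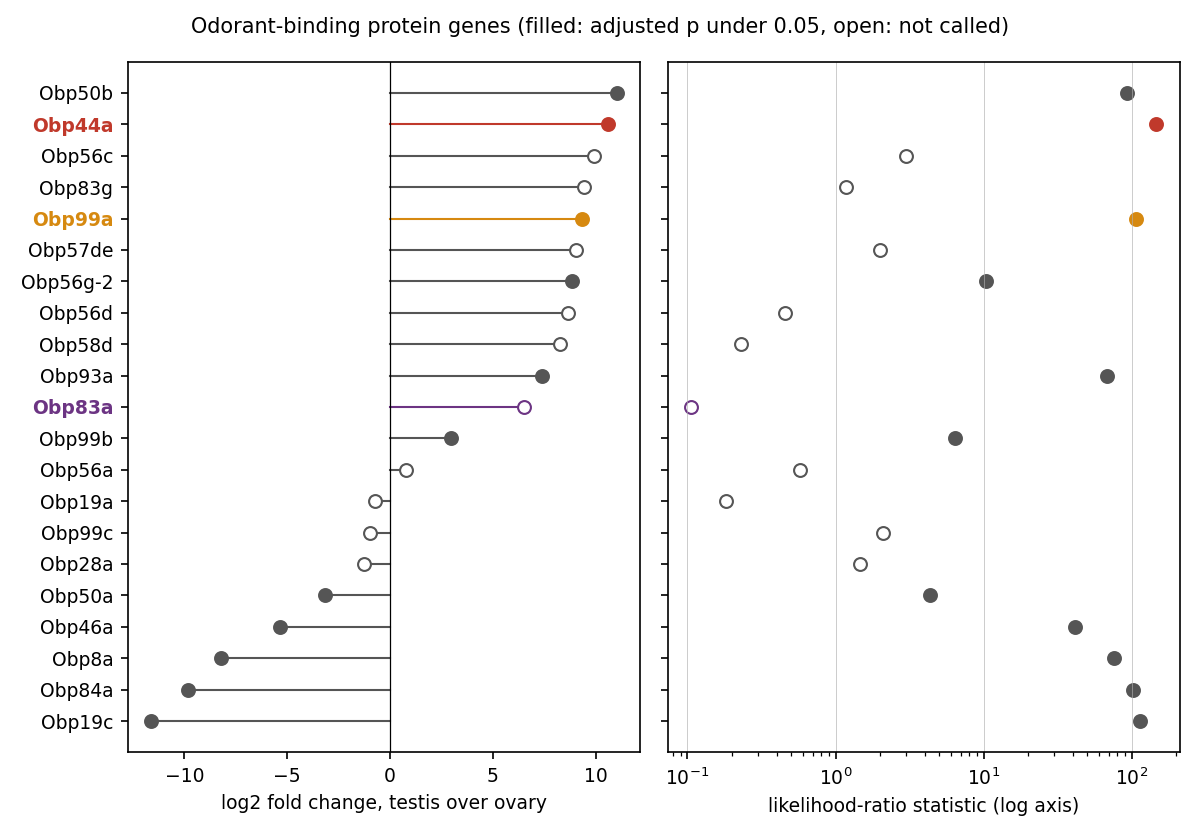
Log2 fold change of testis over ovary (left) and the authors' likelihood-ratio statistic on a log axis (right) for the 21 OBP genes of the D. pseudoobscura table, 1 row per gene, filled where the adjusted p was under 0.05 and open otherwise. Obp44a has the largest statistic of the family, 147, and Obp83a the smallest, 0.106, although their folds are 10.6 and 6.53.

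Gene neighbourhoods were read from RefSeq, assembly UCI_Dpse_MV25, which may differ from the build behind the table, so no coordinates are given. RefSeq lists 40 coding genes with an OBP symbol in this species, and 18 of the 21 OBP symbols of the table were among them. Obp83a lies next to Obp83b, its antennal relative known as OS-E in D. melanogaster, with 0 coding genes between. Whether reads of these relatives were shared in the authors' counting was not tested, and Obp83b has no row under that symbol in the table. Obp99a lies in a loose group, with 4 coding genes between it and Obp99c and 7 between it and Obp99b. In the authors' deposited table Obp99c stood at -0.99 and was not called. Obp99b stood at 2.97 and was called testis-biased, in the direction of Obp99a but with a smaller fold. Obp99d, with 6 coding genes between, has no row under that symbol. Obp44a stands apart, with 116 coding genes between it and the nearest other OBP gene.

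Genes most like each member were sought among the named genes of the table, 227 including the members, by the distance between points on the log2 fold change and the rescaled log2 average. This likeness rests on 1 contrast over 5 libraries and says nothing of shared function. The nearest to Obp44a were exu2, a copy of the exuperantia gene, fru, of the sex determination pathway, and amd, at distances of 2.92, 3.09 and 3.28. Few named genes lay close to it. Their log2 fold changes were 12.8, 7.51 and 7.76 in the authors' deposited table. For Obp99a the nearest were alphaKap5B, Obp50b and ap, a transcription factor gene, at distances of 1.07, 1.74 and 1.74 and folds of 8.80, 11.0 and 9.74 in the authors' deposited table. All of these genes were called testis-biased. Their folds and averages lie where every large fold was called, so these calls follow from how the genes were picked.

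The genes nearest to Obp83a were Orco, the co-receptor that Or receptors need, ftz, a segmentation gene of the embryo, and the odorant receptor gene Or65b1. They lay at distances of 0.49, 0.91 and 1.33. Their log2 fold changes were 7.02, 7.25 and 7.83 in the authors' deposited table, with likelihood-ratio statistics of 0.49, 0.112 and 0.0696. None of them was called, an outcome that their nearness to Obp83a made likely from the start. Orco, a defining gene of olfactory neurons, had a rescaled average of 0.26 per 1000000. It was picked here for lying near Obp83a in fold and average, so this likeness is built in and nothing is read from it.

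Receptors of smell and taste were tabled under 42 symbols of the Or and Gr families with Orco, Snmp1 and Snmp2, the list having been chosen with earlier results known. Of these 13 were called testis-biased (31.0%), 21 ovary-biased (50.0%) and 8 neither, against 29.6% and 44.1% of all genes, with a median log2 fold change of -1.96 against -0.85. Among the 17 Or genes, Orco included, 8 were testis-biased and 5 ovary-biased. Among the 23 Gr genes 4 were testis-biased and 15 ovary-biased. The range of Or folds ran from Or65b3 at -6.85 to Or42a2 at 12.8 in the authors' deposited table. Snmp1, a membrane protein of pheromone-sensing neurons in D. melanogaster, stood at -7.90 in the authors' deposited table, opposite to Obp44a and Obp99a. Snmp2 went the same way as Obp44a and Obp99a, at 4.28 in the authors' deposited table, and was called testis-biased. The rescaled log2 averages of Snmp1 and Snmp2 were low, at -0.78 and 0.37. No receptor had a rescaled log2 average above 3.28, which is below those of Obp44a and Obp99a, again without correction for length.

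Markers of other tissues that a gonad dissection could hold were read beside the members. Fewer cells of a type and less RNA per cell cannot be told apart in such samples. Accessory gland peptide genes, made in male reproductive glands, moved in the same direction as Obp44a and Obp99a. All 5 were called testis-biased, against 29.6% of all genes. Their log2 fold changes ran from 5.56 for Acp26Aa to 9.12 for Acp53C14a in the authors' deposited table. Their rescaled log2 averages were low, from -0.96 to -0.21, against 8.50 for Obp44a and 5.40 for Obp99a. Any part of gland RNA in the folds of the members was not tested.

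Muscle and gut genes went mostly the other way. Of 9 muscle genes 7 were ovary-biased and 1, TpnCIIIa at 3.66, was testis-biased in the authors' deposited table. All 6 gut genes were ovary-biased. Over all genes, 44.1% were called ovary-biased and 29.6% testis-biased, which is the background for each list here. Gad1, an enzyme of inhibitory neurons, was the 1 nervous system gene of 9 listed that the table names, and its value of -1.63 was not called (adjusted p = 0.421 in the authors' edgeR test and the authors' deposited table). Of the 9 fat body symbols 0 were matched. Among gonad genes, 2 of 14 testis symbols were matched and both were testis-biased, and 4 of 10 ovary symbols were matched and all were ovary-biased. Of these, fru, chinmo, dhd and bcd had helped to fix the reading of the sign, so their directions are no independent result. Because so few symbols were matched, most defining genes of each tissue were not analysed here.

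**Figure D4:**
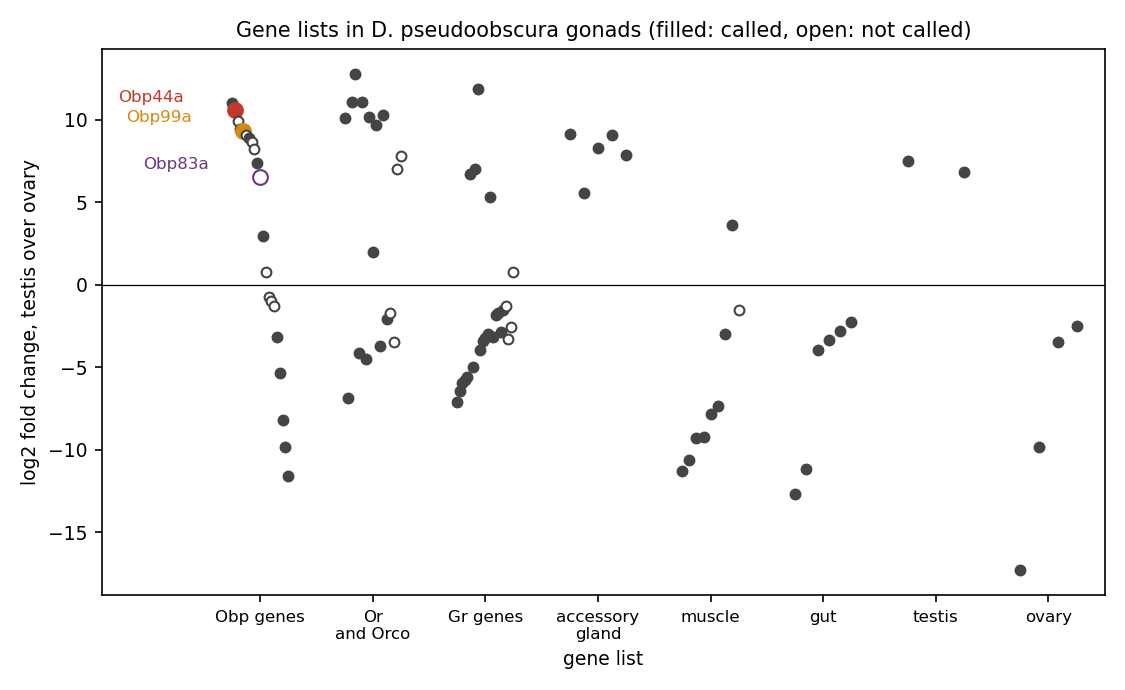
Log2 fold change of testis over ovary (vertical axis) for each matched gene of 8 lists (horizontal axis), 1 point per gene, filled where called at an adjusted p under 0.05 and open otherwise. The 5 accessory gland genes lie from 5.56 to 9.12, on the side of Obp44a and Obp99a, while the OBP, Or and Gr lists hold called genes on either side of 0.

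In D. ananassae, the other species with a table used here, 0 of 11576 genes carried an OBP symbol. The same contrast for these 3 genes in that species was not analysed here.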

How the data were processed

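The labels assign 13 libraries to species and tissue, and none tells on which sequencer a library ran, so such batches were not checked. The tools listed in the submitters' processing notes are edgeR, Cuffdiff 2.1.0 with Cufflinks 2.1.0, HTSeq 0.5.4p3 and the aligner Bowtie2 2.1.0. The normalization, strand setting, count filter, annotation and genome build are each not given in the sources used here. Per the file headers, each gene has a deposited log2 fold change with its log2 average over libraries. The authors also deposited the test's likelihood-ratio statistic, which is a score, next to its p-value and the false discovery rate. Depth per library is unknown, so no interval on counts was computed.

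The deposited p-value was within 0.494% of the chi-square tail of the statistic, and the deposited false discovery rate within 0.746% of a Benjamini-Hochberg value. Linear averages summed to 8.09e+06 times 1000000, so they were rescaled to a total of 1000000. A table of CPM would sum to 1000000, and which library sizes the authors' fit used is not given in the sources used here, so how well the deposited folds and averages are scaled for depth is not known. Standard errors are the absolute fold over the square root of the statistic, with 1.96 errors to each side for intervals. They assume a quadratic log-likelihood and are rough for very large folds. This arithmetic and the adjustment were run on simulated data, as a check of the code only. The simulated statistics were built from normal errors of a common size, without counts. That run therefore cannot check the quadratic assumption or the errors at very large folds and low averages. Genes were called at an adjusted p under 0.05 in the authors' edgeR fit.

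Members, gene lists and tests were chosen with earlier results of these data known. The rule for named genes took the members, the 3 highest and 3 lowest folds among other OBP genes, the 3 nearest named genes of each member, and listed marker genes. The windows of 0.25 and 0.5 and the bins of average expression were chosen after the values were seen. Alternatives were centring on the median gene, Bonferroni adjustment, minimum folds of 2 and 4, a minimum average, and an adjusted p under 0.01. Sequences of the members are not used here. Values were computed in Python 3.11.15 with pandas 2.3.3, numpy 2.4.6 and scipy 1.17.1, and plotted with matplotlib 3.10.9.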

Additional observations from a re-analysis of the deposited data

How the results depend on the processing

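Obp44a and Obp99a stayed called and Obp83a stayed uncalled under each alternative that gave a value, 20 values in all. Apart from centring, which shifts every gene alike, these settings leave the folds as deposited, so they are no check of direction. None could have added a call for Obp83a. Nor could any have removed the calls of Obp44a and Obp99a, given their folds and adjusted p, so the 20 values are no check of these calls. Obp83a has no value with a rescaled log2 average of at least 1, which removes it. Centring together with a minimum of 2-fold was added after the data were seen. Counts moved by over 1.5 times under a pair of settings. With Bonferroni adjustment, 3279 genes were ovary-biased in place of 5269, and 2 other OBP genes were testis-biased in place of 4. With the minimum average, which leaves 10181 genes, 2 other OBP genes were testis-biased and 1 was ovary-biased, in place of 4 and 5; the cause lies in the construction, since most of the family has a lower average. No paired analysis was possible because the tables hold no values per library, and for the same reason no replicate could be left out and no other normalization or pseudocount tried. How the folds of Obp44a and Obp99a depend on the authors' fit was not tested. At the average of Obp83a, large folds were called towards ovary and seldom towards testis.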
